A study of Homo sapiens with 6 samples.

Results

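The genes analysed here encode the proteins of the cytosolic ribosome. They were chosen by symbol: every gene named RPL or RPS with a number and an optional A or X, and RPLP0, RPLP1, RPLP2 and RPSA, with pseudogenes left out. The rule took 77 of 57773 genes in the count table, 46 of the large and 31 of the small subunit. RNA from the human liposarcoma line SW872 was sequenced in 3 replicates given 18 μM Apatinib for 24 h (the Apatinib group). The other 3 replicates are labelled as controls (the control group). Whether the controls received the solvent of the drug is not stated in the sources used here. Apatinib is a tyrosine kinase inhibitor directed at VEGF receptor 2. The methods of the study call the replicates biological, and the labels do not describe how the cultures were kept apart. All samples came from 1 cell line, so p values measure only the spread between these samples, which may be technical.

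The large subunit of a ribosome joins amino acids into a chain and the small subunit reads the mRNA, and each holds ribosomal RNA and many proteins needed in matched amounts. The mRNAs of these proteins begin with a run of pyrimidines, the 5′ terminal oligopyrimidine (TOP) tract, through which mTOR signalling controls their translation without a need for a change in mRNA level. Some of the proteins also act outside the ribosome, such as RPL5 and RPL11, which bind MDM2 when ribosome assembly is disturbed.

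The start of the gene was read from RefSeq promoter sequences (GRCh38.p14), because the TOP tract is a known feature of the mRNAs of these proteins. It was not found at every listed start. Of the 77 members, 62 matched, with 77 start positions, and 10 members had more than 1. RPL30, RPL37, RPL5, RPL7, RPS15A and RPS2, described below, were among those not matched. The windows below hold 20 bases before the start and 10 bases from it on, 5′ to 3′ on the strand of the gene. They come from another genome build than the expression values (hg19) and were used for sequence only. Capitals mark the unbroken run of C and T that covers the start. They are shown for the stalk proteins, for RPS6 and RPSA, which are named for their roles, and for other members described below: RPLP0 (chr12:120201102-120201131, minus strand), RPLP1 (chr15:69452798-69452827, plus strand), RPLP2 (chr11:809947-809976, plus strand), RPL28 (chr19:55385912-55385941, plus strand), RPL41 (chr12:56116613-56116642, plus strand), RPSA (chr3:39406700-39406729, plus strand), RPS6 (chr9:19380227-19380256, minus strand), RPS18 (chr6:33272055-33272084, plus strand), RPS24 (chr10:78033843-78033872, plus strand), RPS26 (chr12:56041898-56041927, plus strand) and RPS28 (chr19:8321476-8321505, plus strand).
RPLP0: ggcacgcgcgggcgcgaggCCCTTCTCTCg
RPLP1: gctgcgtataggcgcgagagCCCCTTTCCT
RPLP2: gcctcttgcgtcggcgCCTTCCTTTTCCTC
RPL28: tcgcctcgcccctcgCCTTCCTCTTTCCgt
RPL41: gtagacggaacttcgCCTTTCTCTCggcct
RPSA: cgtcatttcctgccgcctgTCTTTTCCgtg
RPS6: gcgctaagcggaagttggCCCTCTTTTCCg
RPS18: gatatcgcgtcacttccgCTCTCTCTTCCa
RPS24: ttggccggcgaatcgtggTTCTCTTTTCCT
RPS26: gctgggagacacataacctcgattttcttc
RPS28: ggctctccccgaagcacgtgactcctctcc

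In these windows the start lay inside the run of C and T for 9 of the 11 genes, and RPS26 and RPS28 had a G and an A at the listed start. Over all member starts, 46 of 77 (59.7%) had a C followed by 4 bases of C or T, against 1429 of 35116 starts of all genes (4.07%). The motif CTTTC was found on either strand in 31 of the 77 member windows (40.3%) and in 7.52% of all windows. CTTTT was found in 19 (24.7% against 6.22%) and TCTTT in 21 (27.3% against 6.71%), and neighbouring matches of these 3 motifs can share bases. A start with a C followed by 4 bases of C or T was found in 46 members, whose log2 fold changes had a median of 0.18. The 16 matched members without one had a median of 0.16, so the medians lay close together. Some of these 16, such as RPS7 and RPL19, still had a run of C and T over a listed start. Whether the others lack a tract or start elsewhere was not tested. A match is a description of these letters and not of a regulated site.

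The libraries held 18081919, 17275850 and 17352210 counts in Apatinib replicates 1, 2 and 3, against 17043314, 18139437 and 22067558 in control replicates 1, 2 and 3. Markers of the cell line were checked first. Of the mesenchymal markers, VIM had between 881 and 1263 FPKM (fragments per kilobase of exon, scaled to library size) and S100A6 had 232, 158 and 189 with Apatinib, against 90.4, 89.0 and 105. COL1A2 (7.16, 7.04 and 6.13 against 4.83, 4.79 and 5.11), COL1A1 (3.49 to 4.57) and THY1 (1.02 to 1.81) had lower FPKM than these, and PPARG, a regulator of the adipocyte lineage, had between 19.7 and 27.1 FPKM. ADIPOQ and FABP4, which mark mature adipocytes, were listed at 0 in every sample, and PLIN1 reached at most 0.386 FPKM. The adipocytic marker LPL had 2.51, 4.45 and 3.29 FPKM with Apatinib, against 2.22, 1.95 and 1.54, all higher with Apatinib. S100A6, COL1A2, PLIN1 and, by a narrow margin, THY1 also had higher FPKM in every Apatinib sample than in any control, and CDH5 had lower FPKM (at most 0.178 against at least 0.318). The epithelial markers EPCAM, CDH1 and KRT19 and the endothelial markers KDR and CDH5 reached at most 0.629 FPKM, and PTPRC was listed at 0. CD68 also had higher FPKM in every Apatinib sample (11.8, 8.56 and 6.78 against 3.30, 1.79 and 2.85) while it had at most 1 count, so its values in the 2 kinds of file did not match.

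Ribosomal protein genes were among the most abundant of the cells. By mean FPKM over the 6 samples, 42 of the 100 most abundant genes were members. The median member had 403 FPKM, with 380 for the large and 414 for the small subunit. In the large subunit RPL10 (ENSG00000147403, a late-joining protein of the large subunit) had the highest mean at 1065 FPKM and RPLP0 the next at 851, and RPL22 had the lowest at 51.7 and RPL36 the next at 107. In the small subunit RPS18 (903 FPKM) and RPS3A (786 FPKM) were highest, and RPS28 (101 FPKM) and RPS26 (103 FPKM) were lowest. By FPKM the levels spanned a wide range, although the proteins are built into the ribosome in like numbers. This order also depends on the transcript length used for each gene. RPS28, for instance, had more counts than RPS26 in every sample.

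The count table and the FPKM values disagreed for 9 members. Dividing counts by FPKM gives the transcript length that both values imply, and the other 68 members had a median of 1225 bases. RPS10, with a mean of 723 FPKM, had 25, 30 and 22 counts against 28, 22 and 31, which implies 2.0 bases. RPL17, RPL26, RPL36A, RPS23, RPL30, RPS15A and RPL23A implied between 2.7 and 161 bases, all under the 200 bases used as the limit. The next member above it, RPS3A, implied 406 bases. These 9 members took 11.8% of the FPKM of all members but 0.564% of their counts. The fold changes of RPS10, RPL17, RPL36A and RPL26 from counts therefore rest on few reads, and the share of reads that the counting left out was not tested.

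**Figure D1:**
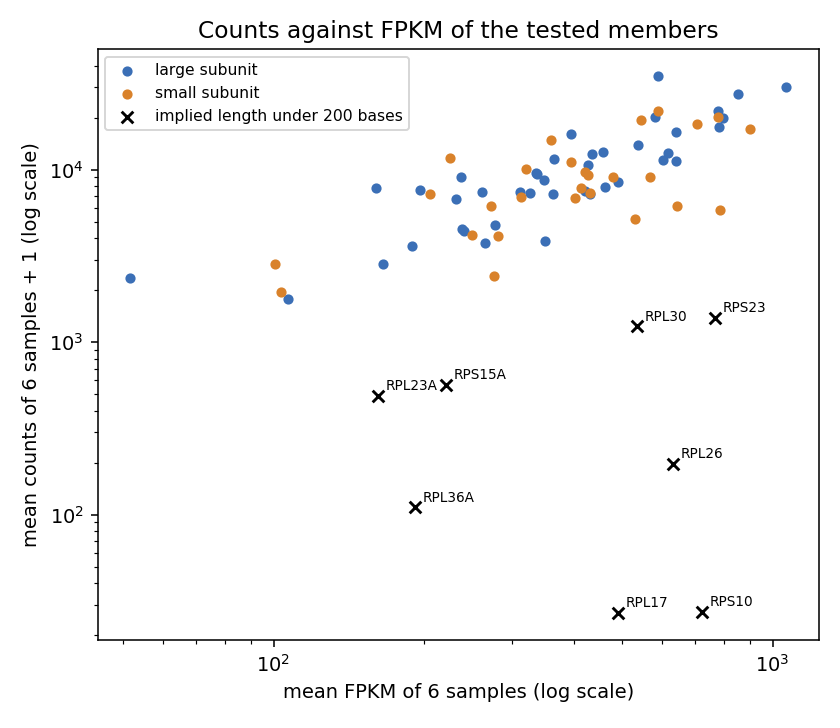
Mean counts (plus 1, log scale) against mean FPKM (log scale) of the 76 tested members over the 6 samples, with large subunit members in blue and small subunit members in orange. The crosses are members whose counts imply a transcript under 200 bases, and RPS10 and RPL17 have the fewest counts.

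Members took 4.53%, 3.66% and 4.07% of all counts in Apatinib replicates 1, 2 and 3, against 3.50%, 3.50% and 4.03% in control replicates 1, 2 and 3. Apatinib replicate 1 was the highest, control replicates 1 and 2 were the lowest, and the groups overlapped because control replicate 3 lay above Apatinib replicate 2. The mean was 4.08% ± 0.436 (SD, n = 3) with Apatinib and 3.67% ± 0.306 (SD, n = 3) in the control. The 95% Wilson intervals of single samples were narrow, such as 4.52% to 4.54% in Apatinib replicate 1, and cover counting error only. The difference of 0.411 percentage points was 0.189 without Apatinib replicate 1 and 0.625 without Apatinib replicate 2. As a share of summed FPKM the members took 10.4%, 9.10% and 9.79% against 8.88%, 8.89% and 9.58%, with the same overlap. In bulk RNA, a smaller number of cells of one kind and less RNA per cell cannot be told apart.

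The subunits were then followed across the samples. For each member, the log2 CPM (counts scaled to the library size with TMM factors) of a sample was set against the mean of the 6 samples. The median deviation of the large subunit was 0.31, -0.11 and 0.08 in Apatinib replicates 1, 2 and 3, against -0.17, -0.14 and 0.06 in control replicates 1, 2 and 3. The median deviation of the small subunit was 0.27, -0.06 and 0.09 against -0.15, -0.16 and 0.03. Apatinib replicate 1 was high and control replicates 1 and 2 low in both, and Apatinib replicate 2 lay below control replicate 3. Of the 76 members tested, 62 had their highest CPM in Apatinib replicate 1, and 27, 26 and 21 had their lowest in control replicate 1, Apatinib replicate 2 and control replicate 2.

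**Figure D2:**
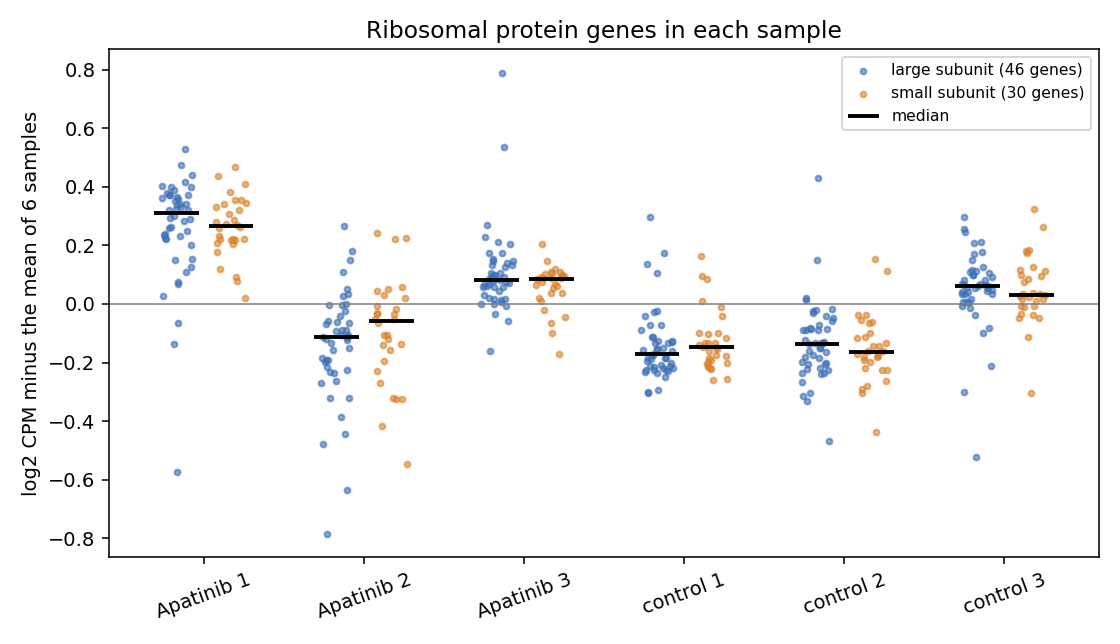
Log2 CPM of each tested member minus its mean over the 6 samples, for 46 large subunit genes (blue) and 30 small subunit genes (orange), with black lines at the medians. Both subunits are highest in Apatinib replicate 1 (0.31 and 0.27) and below 0 in Apatinib replicate 2 and control replicates 1 and 2.

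The large subunit was also compared with the small one within each sample. Mean log2 CPM of the large minus that of the small subunit was 0.05, 0.0011 and 0.10 in Apatinib replicates 1, 2 and 3, against 0.03, 0.07 and 0.05 in control replicates 1, 2 and 3. The control values lay inside the range of the Apatinib values. These means weigh all members alike, also those with few reads. RPL17, for instance, deviated from its mean by -0.79 and 0.79 in Apatinib replicates 2 and 3. The balance without such members was not tested. The mean difference was 0.049 ± 0.049 (SD, n = 3) with Apatinib and 0.053 ± 0.019 (SD, n = 3) in the control, so the balance of the subunits moved by less than the spread between replicates.

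Other measures of the libraries moved with the groups. Transcripts of the mitochondrial genome took 5.69%, 5.16% and 5.50% of counts in the Apatinib group, against 4.47%, 4.71% and 5.11% in the control, without overlap between the groups. The 10 most abundant genes took 7.02%, 6.33% and 6.57% against 5.46%, 5.60% and 6.14%, also without overlap. The 1206 other tested genes with an implied length of 200 to 1000 bases took 2.99%, 2.64% and 2.86% of counts, against 2.44%, 2.49% and 2.77%. As with the members, Apatinib replicate 1 was highest, control replicates 1 and 2 were lowest and control replicate 3 lay above Apatinib replicate 2. The median log2 fold change of these short genes was 0.02, and 627 of them lay above 0. The part of these library measures in the values of the members was not tested.

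A total of 76 members passed edgeR's filter on low counts and were tested with all 16290 genes. By the quasi-likelihood test in edgeR, 0 of these 76 were DEGs, defined by an FDR below 0.05 together with an absolute log2 fold change over 0.5. Of all genes tested, 11.5% were DEGs, with 5.97% higher and 5.48% lower. This share depended on the replicates. It was 1.65% without control replicate 1, 1.80% without control replicate 2 and 1.75% with controls 1 and 2 summed. No member was a DEG in these 3 fits. The share was 15.5% without control replicate 3. Without Apatinib replicates 1, 2 and 3 it was 4.73%, 8.91% and 12.1%, again with no member called. By FDR alone the count of members was also 0, against 12.9% of all genes. At an unadjusted p under 0.05, 12 members were counted, against 30.6% of all genes. DESeq2 also gave 0 DEGs among the members, against 13.8% of the genes it tested. With the FDR limit alone it gave 3 members, RPL37, RPL30 and RPLP1, against 17.2% of those genes.

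The fold changes were small and mostly of one sign. A log2 fold change above 0, meaning a higher value with Apatinib, was found in 68 of the 76 members, against 50.3% of all genes tested. The median was 0.16 for the large subunit (41 of 46 above 0) and 0.19 for the small subunit (27 of 30 above 0), against 0.0028 for all genes tested. The SD over members was 0.14, against 0.48 over all genes tested. The median SE was also smaller for the members, at 0.14 against 0.17, and 69 members had at least 1000 counts in every sample. The SD over genes of like counts was not tested. Of the 76 members, 32 had a 95% interval of the log2 fold change that lay inside -0.5 to 0.5. An upper bound above 0.5 was found in 40 members and a lower bound below -0.5 in 7. Of the 16290 genes tested, 4593 had an interval inside these limits, 6472 an upper bound above 0.5 and 6687 a lower bound below -0.5. The values depended on single replicates. Without Apatinib replicate 1 the medians were 0.06 (large) and 0.07 (small) with 54 members above 0, without Apatinib replicate 2 they were 0.28 and 0.26 with 72 above 0, and without control replicate 3 they were 0.26 and 0.27. With a correction for the GC content of the genes (GC correction) they were 0.13 and 0.12 with 62 above 0.

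**Figure D3:**
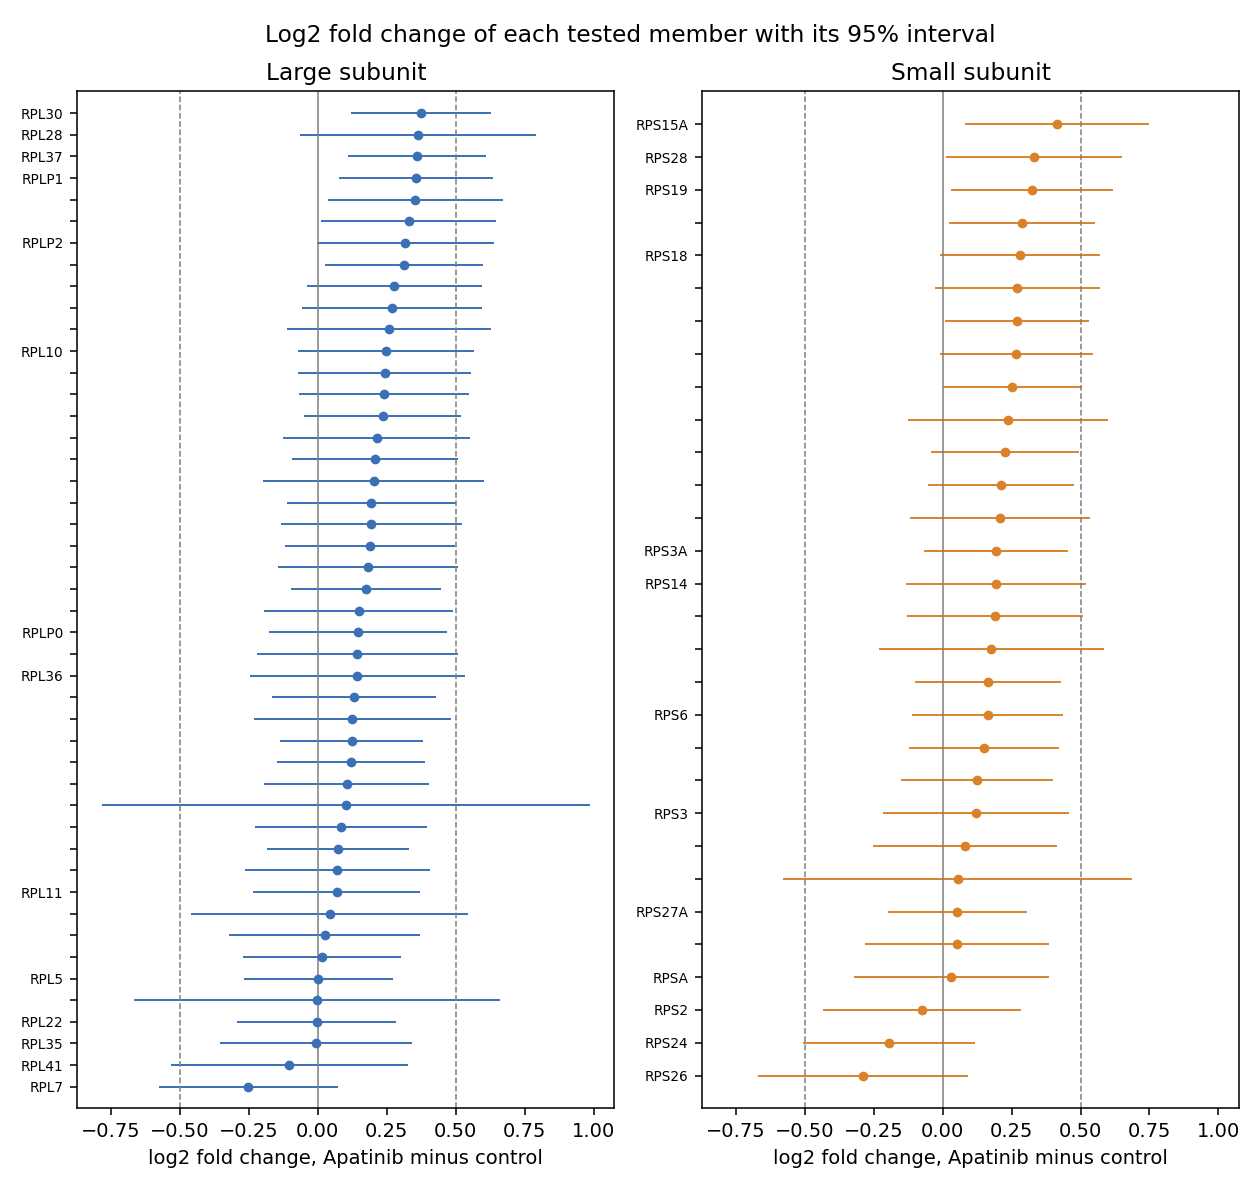
Log2 fold change (Apatinib minus control) of each of the 76 tested members with its 95% interval from edgeR, for the large subunit (left) and the small subunit (right), with dashed lines at -0.5 and 0.5. Labels mark the members described in the text; most points lie a little above 0, and RPL7 and RPS26 are the lowest of their subunits.

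The Apatinib and control groups did not overlap in CPM for 12 members that were higher with Apatinib, against 17.5% of all genes tested, and for 1 that was lower, RPL7, against 15.7%. The higher ones included RPL30, RPL37 and RPLP1 of the large subunit and RPS15A, RPS18 and RPS19 of the small subunit, all described below. The count of higher members lay near its background share, so that count does not set the members apart. The count of lower members lay well under its background share.

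In the stalk of the large subunit, which recruits translation factors, RPLP0 (ENSG00000089157) had 1850, 1349 and 1498 CPM with Apatinib and 1350, 1306 and 1594 in the control. Control replicate 3 lay above Apatinib replicates 2 and 3, and the log2 fold change was 0.14 (SE 0.15, edgeR FDR = 0.548), 0.0097 without Apatinib replicate 1 and 0.24 without Apatinib replicate 2. RPLP1 (ENSG00000137818), which pairs with RPLP2, had 1347, 1164 and 1163 CPM against 950, 868 and 1051. Its groups did not overlap, with a log2 fold change of 0.36 (SE 0.13, edgeR FDR = 0.0859, and 0.0468 to 0.362 over the alternatives). RPLP2 (ENSG00000177600) had 494, 372 and 450 CPM against 337, 310 and 408. Control replicate 3 lay above Apatinib replicate 2, and the log2 fold change was 0.32 (SE 0.15, edgeR FDR = 0.168). The starts of all 3 genes carry the run of C and T shown above.

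Among the other large subunit members with the highest fold changes, RPL30 (ENSG00000156482) had 74.6, 75.9 and 78.6 CPM against 59.9, 54.3 and 62.5. All Apatinib samples lay above all control samples, and the log2 fold change was 0.37 (SE 0.12, edgeR FDR = 0.0544, and 0.0223 to 0.279 over the alternatives). It is one of the 9 members whose counts and FPKM disagreed, and its value from FPKM was 0.24. RPL37 (ENSG00000145592) had 603, 569 and 569 CPM against 440, 433 and 484, again without overlap, and a log2 fold change of 0.36 (SE 0.11, edgeR FDR = 0.0586, and 0.0256 to 0.273 over the alternatives). Its FPKM were 454, 414 and 366 against 248, 264 and 281. These gave a log2 fold change of 0.63 on the log2(FPKM + 1) scale (limma FDR = 0.0268), so RPL37 was the only member called from FPKM, where 5.03% of all genes were called. RPL28 (ENSG00000108107) had 878, 584 and 645 CPM against 493, 440 and 704. Control replicate 3 lay inside the Apatinib range, and the log2 fold change was 0.36 (SE 0.20, edgeR FDR = 0.233). Without control replicate 3 it was 0.59 (edgeR FDR = 0.042), the only count-based fit in which a member was a DEG, while without Apatinib replicate 1 it was 0.17. Its FDR reached 0.606 over the alternatives.

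At the other end of the large subunit, RPL7 (ENSG00000147604) had 674, 475 and 683 CPM against 712, 736 and 735. All Apatinib samples were lower, Apatinib replicate 2 by the most, and the log2 fold change was -0.25 (SE 0.15, edgeR FDR = 0.274), or -0.09 without Apatinib replicate 2. RPL41 (ENSG00000229117), which encodes a very short peptide, had 265, 147 and 179 CPM against 185, 204 and 247. The groups overlapped widely, with a log2 fold change of -0.10 (SE 0.20, edgeR FDR = 0.764). Leaving out Apatinib replicate 1 gave -0.37, and leaving out Apatinib replicate 2 gave 0.07. RPL35 (ENSG00000136942), near the exit of the peptide tunnel, had 544, 385 and 443 CPM against 398, 436 and 542. Its log2 fold change was -0.0055 (SE 0.16, edgeR FDR = 0.986), with the highest values of both groups almost equal. It was -0.15 without Apatinib replicate 1 and 0.13 without control replicate 3.

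RPL5 (ENSG00000122406) and RPL11 (ENSG00000142676) join the 5S ribosomal RNA before it enters the large subunit. RPL5 had 723, 600 and 738 CPM against 674, 678 and 708, and a log2 fold change of 0.00097 (SE 0.12, edgeR FDR = 0.997). RPL11 had 469, 350 and 421 CPM against 360, 389 and 435, and a log2 fold change of 0.07 (SE 0.14, edgeR FDR = 0.781). In both, Apatinib replicate 2 was the lowest sample and the control values lay inside the Apatinib range. Without Apatinib replicate 2 the values were 0.09 (RPL5) and 0.18 (RPL11). The lowest were -0.05 for RPL5 without Apatinib replicate 3 and -0.03 for RPL11 without Apatinib replicate 1. RPL10, the member with the highest mean FPKM, had 2100, 1562 and 1697 CPM against 1399, 1421 and 1696. By CPM, RPL4 was higher than RPL10 in every sample. Control replicate 3 lay between Apatinib replicates 2 and 3, and the log2 fold change was 0.25 (SE 0.15, edgeR FDR = 0.277), or 0.12 without Apatinib replicate 1 and 0.11 with the GC correction. RPL22 (ENSG00000116251) had 139, 107 and 141 CPM against 126, 127 and 135, and RPL36 (ENSG00000130255) had 130, 84.2 and 91.9 against 83.2, 83.2 and 111. Both overlapped, with log2 fold changes of -0.0051 and 0.14. RPL22 was -0.07 when Apatinib replicate 3 was left out and 0.12 when Apatinib replicate 2 was, and RPL36 was -0.07 without Apatinib replicate 1 and 0.30 without control replicate 3.

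In the small subunit, RPS15A (ENSG00000134419) had the highest fold change, with 35.5, 35.6 and 35.2 CPM against 32.7, 22.5 and 24.7. The Apatinib samples lay close together and above all controls, and the log2 fold change was 0.41 (SE 0.15, edgeR FDR = 0.0927, and 0.065 to 0.374 over the alternatives). It is also one of the 9 members with few counts for their FPKM. RPS28 (ENSG00000233927) had 205, 151 and 166 CPM against 132, 125 and 158, with control replicate 3 above Apatinib replicate 2, and a log2 fold change of 0.33 (SE 0.15, edgeR FDR = 0.149), or 0.20 without Apatinib replicate 1. RPS19 (ENSG00000105372), the gene most often altered in Diamond-Blackfan anemia, had 806, 639 and 677 CPM against 555, 515 and 627. Its groups did not overlap, though Apatinib replicate 2 and control replicate 3 were close, and the log2 fold change was 0.32 (SE 0.13, edgeR FDR = 0.129). Its FPKM overlapped, with a log2 fold change of 0.07 (limma FDR = 0.773), and RPS28 had 0.15 from FPKM (limma FDR = 0.694).

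The lowest small subunit members were RPS26, RPS24 and RPS2. RPS26 (ENSG00000197728), which lies by the mRNA exit channel, had 117, 70.8 and 96.7 CPM against 103, 115 and 130. Apatinib replicate 1 lay inside the control range, and the log2 fold change was -0.29 (SE 0.17, edgeR FDR = 0.286). Leaving out Apatinib replicate 1 or 2 gave -0.47 and -0.11. RPS24 (ENSG00000138326) had 244, 168 and 221 CPM against 238, 242 and 243, so Apatinib replicate 1 was the highest sample, and the log2 fold change was -0.19 (SE 0.14, edgeR FDR = 0.388). It was -0.31 and -0.05 without the same replicates. RPS2 (ENSG00000140988) had 1304, 868 and 1039 CPM against 1014, 1059 and 1306, and a log2 fold change of -0.07 (SE 0.16, edgeR FDR = 0.799), with -0.24 and 0.06 without them. The windows at the starts of RPS24 and RPS26 differ, with a run of C and T in RPS24 and none over the listed start in RPS26. A link of these windows to the fold changes was not tested.

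**Figure D4:**
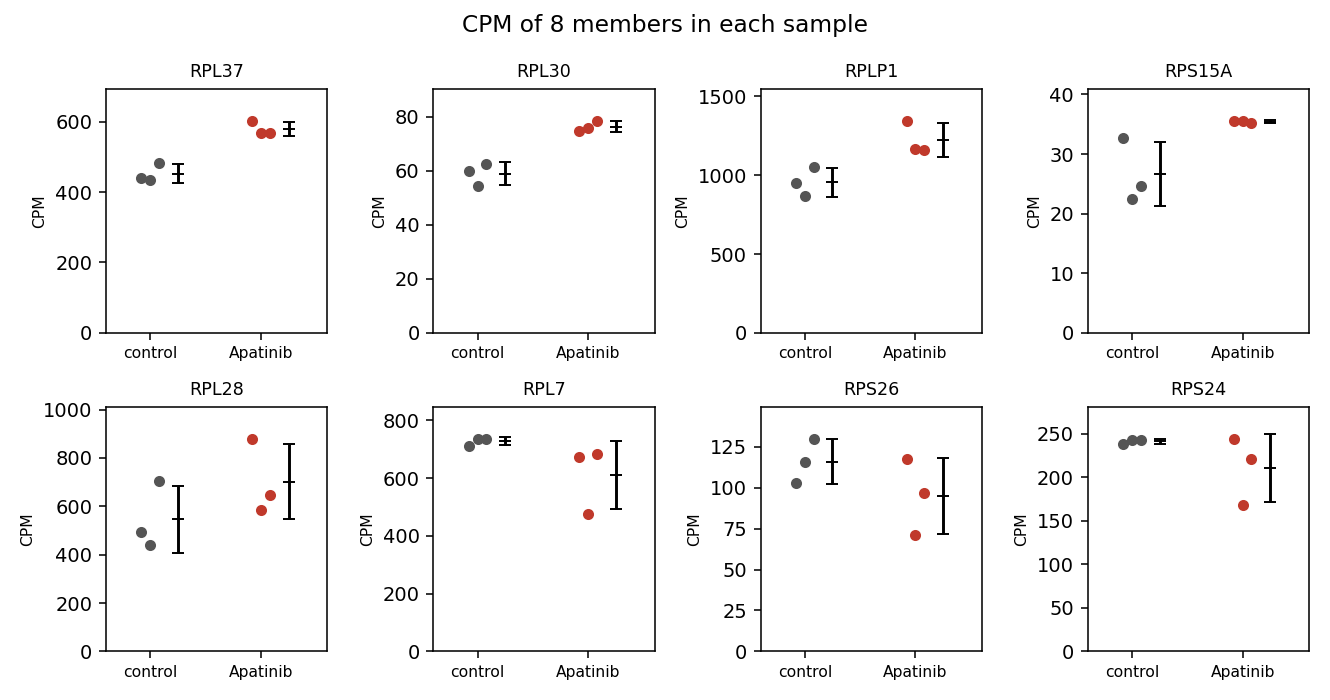
CPM of 8 members in each control (grey) and Apatinib (red) sample, with the mean and SD of each group (n = 3) in black and axes from 0. RPL37, RPL30, RPLP1 and RPS15A do not overlap between the groups and are higher with Apatinib, RPL7 does not overlap and is lower, and RPL28, RPS26 and RPS24 overlap.

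RPS6 (ENSG00000137154), the substrate of S6 kinase, had 1372, 1149 and 1263 CPM against 1055, 1111 and 1214. Control replicate 3 lay above Apatinib replicate 2, and the log2 fold change was 0.16 (SE 0.12, edgeR FDR = 0.407), or 0.10 without Apatinib replicate 1. RPS3 (ENSG00000149273), at the mRNA entry, had 1316, 899 and 1105 CPM against 960, 954 and 1139. RPSA (ENSG00000168028), also known as a laminin receptor, had 1213, 795 and 1040 CPM against 907, 953 and 1122. In both, Apatinib replicate 2 was the lowest of all samples and Apatinib replicate 1 the highest, and the log2 fold changes were 0.12 (edgeR FDR = 0.635) and 0.03 (edgeR FDR = 0.918). Without Apatinib replicate 1 they were -0.02 and -0.11, and without Apatinib replicate 2 they were 0.25 and 0.18. RPS14 (ENSG00000164587), linked to the anemia of the 5q- syndrome, had 513, 362 and 396 CPM against 338, 359 and 414, and RPS27A (ENSG00000143947), made as a fusion with ubiquitin, had 456, 398 and 456 against 431, 417 and 414. Their log2 fold changes were 0.19 (edgeR FDR = 0.411) and 0.05 (edgeR FDR = 0.794), with overlap in both. RPS14 was 0.04 without Apatinib replicate 1, 0.30 without Apatinib replicate 2 and -0.02 from FPKM, and RPS27A was 0.12 without Apatinib replicate 2 and 0.02 without Apatinib replicate 3. RPS18 (ENSG00000231500), in the head of the small subunit, had 1174, 967 and 959 CPM against 781, 832 and 940. Its groups did not overlap, with a log2 fold change of 0.28 (SE 0.13, edgeR FDR = 0.178), or 0.18 without Apatinib replicate 1. RPS3A (ENSG00000145425) had 368, 317 and 338 CPM against 288, 285 and 322, with overlap and a log2 fold change of 0.19 at an edgeR FDR of 0.294.

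The GC correction moved many of these values. In the large subunit it gave 0.04 for RPLP0, 0.15 for RPLP2, 0.20 for RPL28, -0.05 for RPL7, -0.17 for RPL41, -0.19 for RPL35, 0.19 for RPL5, 0.02 for RPL11, -0.05 for RPL22 and -0.09 for RPL36. In the small subunit it gave 0.15 for RPS19, 0.16 for RPS28, 0.09 for RPS14, 0.04 for RPS3, 0.01 for RPSA, -0.12 for RPS24 and -0.27 for RPS2. RPS6, RPS3A and RPS27A had larger values with it, at 0.28, 0.32 and 0.10. No member was a DEG with this correction. The cause of these shifts was not tested.

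Paralogs and ubiquitin-like fusions of ribosomal proteins were examined beside the members. Of 10 genes, 9 were tested and RPL10L was not, and 0 of the 9 were DEGs by edgeR, 0 had an unadjusted p under 0.05 and DESeq2 gave 0 DEGs (11.5%, 30.6% and 13.8% of all genes tested), with a median log2 fold change of 0.03. RPL22L1, the paralog of RPL22, had 47.3, 46.1 and 53.2 CPM against 43.2, 40.5 and 38.6. All Apatinib samples were higher, with a log2 fold change of 0.26 at an edgeR FDR of 0.173. The value was 0.06 from FPKM, and with the GC correction it was 0.64 and RPL22L1 was a DEG. RPL26L1 had 21.4, 16.0 and 18.9 CPM against 21.4, 25.8 and 22.9. All its Apatinib samples were lower, by a narrow margin for replicate 1, with a log2 fold change of -0.32 at an edgeR FDR of 0.18 (-0.42 to -0.21 with a replicate left out). RPL3L had 1.22, 1.02 and 0.916 CPM against 0.750, 0.880 and 0.825. Few reads support its log2 fold change of 0.36 at an edgeR FDR of 0.498, and with the GC correction it was 0.16. RPL39L had 0.24 (0.11 to 0.31 with a replicate left out), and RPL36AL had -0.24 (-0.34 to -0.07, and -0.0045 with the GC correction). RPL7L1 and RPS27L had -0.06 and 0.03, and with the GC correction -0.02 and 0.30. FAU encodes a ribosomal protein that the naming rule misses. FAU had 95.7, 64.3 and 75.6 CPM against 60.3, 67.3 and 74.4. Apatinib replicate 2 lay inside the control range, with a log2 fold change of 0.22 (0.06 to 0.35 with a replicate left out, and 0.05 with the GC correction).

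Translation factors and related genes whose mRNAs also carry a TOP tract numbered 20, of which 19 were tested and EEF1G was not. None was a DEG by edgeR or DESeq2 (11.5% and 13.8% of all genes tested), 4 had an unadjusted p under 0.05 (30.6% of all genes tested), and the median log2 fold change was 0.02 with 11 above 0. This median was -0.03 (7 above 0) without Apatinib replicate 1 and 0.13 (12 above 0) without Apatinib replicate 2. TPT1 had 683, 719 and 645 CPM against 520, 541 and 563, all higher with Apatinib, and a log2 fold change of 0.33 at an edgeR FDR of 0.0734. NPM1, a nucleolar chaperone, had 471, 401 and 539 CPM against 632, 665 and 598, all lower, and a log2 fold change of -0.43 at an edgeR FDR of 0.0559. HNRNPA1, an RNA-binding protein, had 523, 365 and 560 CPM against 649, 695 and 696, also all lower, and a log2 fold change of -0.49 at an edgeR FDR of 0.0586. The TOP genes outside the ribosome thus held members on both sides of 0. DESeq2 gave these 3 genes an FDR under 0.05 (0.0374, 0.0245 and 0.0218), with fold changes under the limit. The fourth gene, IPO5, had 996, 922 and 1058 CPM against 1248, 1244 and 1242, all lower. Its log2 fold change was -0.33, at an edgeR FDR of 0.0836 and a DESeq2 FDR of 0.0479. Without Apatinib replicate 3, HNRNPA1 (-0.61) and NPM1 (-0.53) were DEGs. HNRNPA1 was also a DEG with the replicate block (-0.52) and with library totals (-0.51), and its smallest value with a replicate left out was -0.32. NPM1 was not a DEG in the other fits and was -0.19 with the GC correction, with which TPT1 was a DEG (0.52).

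The mitochondrial ribosome, built from a separate set of proteins, was taken as a second comparison. Of 78 entries, 74 were tested, 41 of them had a log2 fold change above 0 (median 0.02), and 1 was a DEG (1.35%, against 11.5% of all genes tested). MRPL50 had 16.3, 16.8 and 21.4 CPM against 30.1, 30.8 and 22.4, all lower with Apatinib, and a log2 fold change of -0.61 at an edgeR FDR of 0.0383. The call was lost in 4 of the 6 fits that left out a replicate, and with a correction for GC content the value was -0.14. MRPL1 had 16.4, 17.3 and 13.7 CPM against 24.5, 26.7 and 18.3, and MRPL19 had 32.4, 34.4 and 38.6 against 46.9, 46.7 and 39.5. Their log2 fold changes were -0.55 and -0.33 (edgeR FDR = 0.0559 and 0.111), without overlap in either. MRPL1 was a DEG without control replicate 3 (-0.69), with DESeq2 (-0.54), with no filter (-0.53) and with the length correction (-0.59). With the GC correction MRPL1 was -0.09 and MRPL19 -0.21.

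Genes of ribosome biogenesis had a median below 0. All 58 were tested, 45 had a log2 fold change below 0, and the median was -0.15. The DEGs were 3 (5.17%), all lower with Apatinib, where 5.48% of all genes tested were lower: SPATA5, NOP58 and UTP20. Across the samples the median deviation of the list was -0.13, 0.05 and -0.16 in Apatinib replicates 1, 2 and 3, against 0.08, 0.09 and 0.03 in control replicates 1, 2 and 3. Apatinib replicate 2 lay above control replicate 3, so the groups overlapped here too. SPATA5, an ATPase of large subunit maturation (now AFG2A), had 11.9, 12.1 and 12.4 CPM against 20.3, 21.5 and 18.3. All Apatinib samples were lower, with a log2 fold change of -0.72 at an edgeR FDR of 0.0116. The call was lost without control replicate 1 or 2 (FDR up to 0.0789) and with the GC correction (-0.50). From FPKM the value was -0.38 with 1 added and -0.62 with 0.1 added. NOP58, a core protein of snoRNA particles that guide methylation of ribosomal RNA, had 33.3, 50.3 and 46.1 CPM against 84.0, 90.1 and 55.7. All Apatinib samples were lower, with a log2 fold change of -0.82 at an edgeR FDR of 0.0242, and the call was lost without Apatinib replicate 1 or control replicate 1 or 2 (FDR up to 0.113). UTP20, of the small subunit processome, had 45.5, 55.3 and 58.8 CPM against 82.3, 85.7 and 65.7. Its log2 fold change was -0.55 (edgeR FDR = 0.0332), the call held in 2 of the 6 fits that left out a replicate, and with the GC correction the value was -0.16. NCL (nucleolin) had 397, 379 and 434 CPM against 537, 579 and 536, all lower, and a log2 fold change of -0.45 at an edgeR FDR of 0.0303, under the limit on the fold change, which it passed without Apatinib replicate 3 (-0.50). The number of DEGs in this list was 0 without control replicate 1 or without control replicate 2, and 0 with controls 1 and 2 summed and on both FPKM scales. It was 9 without control replicate 3 (15.5%, and 15.5% of all genes) and 5 without Apatinib replicate 2 (8.62% and 8.91%). It was 6 (10.3%) with the replicate block, with DESeq2 and with no filter, where 13.6%, 13.8% and 7.85% of all genes were called, and 1 with the GC correction (1.75% and 8.56%). The median was below 0 in each fit and ranged from -0.24 to -0.08.

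The regulators of TOP mRNAs and of ribosome quality control came last. Of 24 genes 23 were in the table (MAP3K20 was not) and tested, with 1 DEG higher and 4 lower (21.7%, against 11.5% of all genes tested), and a median log2 fold change of -0.04. None was a DEG without control replicate 1, without control replicate 2 or with controls 1 and 2 summed. The count was 1 (4.35%) without Apatinib replicate 1, on both FPKM scales and with the GC correction. In those fits 4.73%, 5.03%, 5.12% and 8.56% of all genes were DEGs. It was 6 (26.1%) with DESeq2, with no filter, with the replicate block and without control replicate 3 (13.8%, 7.85%, 13.6% and 15.5% of all genes). RPS6KB1, the S6 kinase that phosphorylates RPS6, had 29.1, 35.6 and 35.8 CPM against 62.5, 67.5 and 45.0. All Apatinib samples were lower, with a log2 fold change of -0.80 (SE 0.16, edgeR FDR = 0.0140), while RPS6 itself was not a DEG. The call was lost without control replicate 1 or 2 (FDR up to 0.0814). EIF4EBP1, the repressor of cap-dependent translation that mTOR inactivates, had 98.9, 125 and 72.1 CPM against 57.3, 56.3 and 61.2. All Apatinib samples were higher, with a log2 fold change of 0.76 (SE 0.17, edgeR FDR = 0.0213), and the call was lost without Apatinib replicate 1 or control replicate 1 or 2 (FDR up to 0.0947) and with the GC correction (0.54). USP16, a deubiquitinase of small subunit maturation, had 31.2, 40.1 and 34.5 CPM against 68.6, 70.5 and 42.7, with a log2 fold change of -0.78 at an edgeR FDR of 0.0243. TIA1, which binds TOP mRNAs, and RICTOR, a component of mTOR complex 2, were the other 2 lower DEGs, with log2 fold changes of -0.72 and -0.75 (edgeR FDR = 0.0335 and 0.0442). In both the groups overlapped, as control replicate 3 lay near the Apatinib samples at 88.1 and 83.2 CPM. The calls of USP16, TIA1 and RICTOR each held in 2 of the 6 fits that left out a replicate, and the GC correction gave -0.38, -0.38 and -0.31. MTOR, RPTOR and LARP1 were not DEGs.

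**Figure D5:**
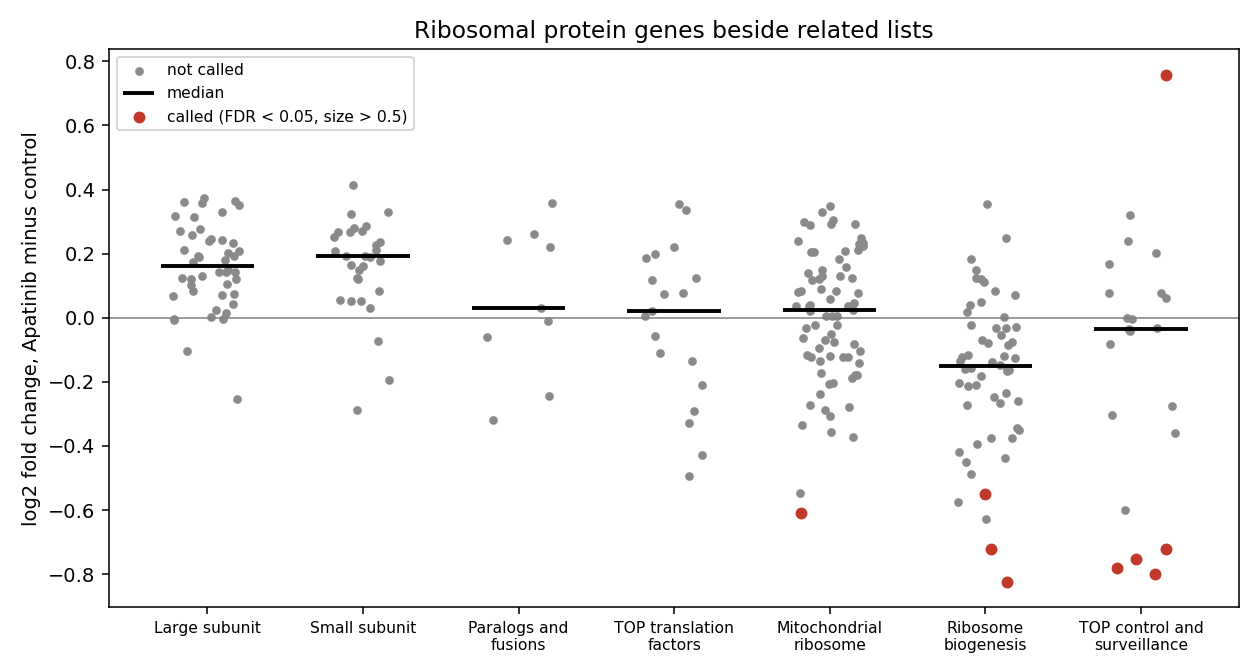
Log2 fold change (Apatinib minus control) of the tested ribosomal protein genes and of the genes of the 5 related lists, with DEGs in red and medians as black lines. The medians are 0.16 and 0.19 for the large and small subunit and -0.15 for ribosome biogenesis, and the other lists lie near 0.

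Pseudogenes of ribosomal proteins can share reads with the members. The table held 845 such entries, which took 0.0842%, 0.0721% and 0.081% of counts in the Apatinib group, against 0.0721%, 0.0675% and 0.0761% in the control, far less than the members. RPS2P46 alone held 38.9% of these counts. Of these, 55 were tested, 39 lay above 0 with a median of 0.28, and 5 were DEGs (9.09%), all higher with Apatinib, where 5.97% of all genes tested were higher: RPL13AP5, RPL29P19, RPL4P4, RPLP0P2 and RPL12P4, named after their values were seen. With no filter on low counts, 183 of 355 lay above 0 with a median of 0.0851. In that fit 7 were DEGs (1.97%, against 7.85% of all genes). With the filter the count was 2 without control replicate 1, 1 without control replicate 2 and 2 with controls 1 and 2 summed. These were 3.23%, 1.64% and 3.23%, against 1.65%, 1.80% and 1.75% of all genes. It was 7 without control replicate 3 (11.1% against 15.5%). Without Apatinib replicates 1, 2 and 3 it was 3 (5.09% against 4.73%), 5 (8.33% against 8.91%) and 2 (3.28% against 12.1%). RPL13AP5 had 358, 346 and 343 counts against 190, 189 and 251, with a log2 fold change of 0.87 at an edgeR FDR of 0.00603, while its parent RPL13A had 0.28 (edgeR FDR = 0.222). How the counting divided reads between parents and copies is not stated, so values of these pairs are uncertain.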

How the data were processed

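RNA of 6 samples of the SW872 line was analysed, grouped by their labels. The authors deposited a table of gene counts. The deposited FPKM values, 1 set per sample, were also used. The submitters' processing notes name CASAVA, STAR 2.7.1a and genome hg19, and the counting program, its handling of reads that map to several places and the annotation are not given in the sources used here. In the FPKM values of Apatinib replicate 1, 1 column headed with another sample's label was not used.

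Counts were tested in R 4.3.3 with edgeR 4.0.16 (filterByExpr, TMM scaling, quasi-likelihood F test), with Benjamini-Hochberg adjustment over all 16290 genes tested. Standard errors and 95% intervals came from the F statistic. Log2 CPM used a prior count of 2. Alternatives were DESeq2 1.42.0, limma 3.58.1 on log2 values of FPKM with 1 or 0.1 added, kept where the mean exceeded 0.5, other scalings and filters, a replicate block, leaving out each replicate, and a correction for gene length by loess (span 0.3). A correction for GC content and the removal of members with implied length under 200 bases were added after seeing the data. The code was tested on simulated data.

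The members and lists were chosen with earlier results of these data known. Named were the 3 highest and 3 lowest fold changes and, by mean FPKM, the 2 most and 2 least abundant members of each subunit. Also named were 13 members fixed by role, FAU, the paralogs, and the 3 genes with the smallest p of each list. Other genes were chosen after their values were seen. Where the naming rule for pseudogenes also matched RPLP0, RPLP1 and RPLP2, these stayed with the members.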

Additional observations from a re-analysis of the deposited data

How the results depend on the processing

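The number of ribosomal protein DEGs was 0 in each fit except 3: it was 1 with limma on log2(FPKM + 1) and 1 on log2(FPKM + 0.1) (RPL37 in both), and it ranged from 0 to 1 over the fits that left out a replicate (RPL28 without control replicate 3). The cause was not tested. Tests against a fold change limit (glmTreat), members with at least 1000 counts in every sample and members with an implied length of at least 200 bases also gave 0. By FDR alone, 0 members were counted, but 3 with DESeq2 and 3 with the GC correction, and 1 with library totals, on both FPKM scales, without Apatinib replicate 2 and without control replicate 3. The list of TOP regulators had 0 to 6 DEGs when a replicate was left out, and the mitochondrial list 0 to 2. In these fits 1.65% to 15.5% of all genes were DEGs. The medians of the lists moved in them too: 0.0032 to 0.16 (paralogs), -0.03 to 0.13 (TOP translation factors), -0.05 to 0.09 (mitochondrial) and -0.12 to 0.04 (TOP regulators). With the replicate block the count of ribosomal protein DEGs was 0 and the medians were 0.16 and 0.18 (large and small subunit). Replicate numbers did not pair the samples (correlations of -0.259, 0.0808 and -0.22). The medians of both subunits stayed above 0 in each fit.

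Some genes changed sign, most of them close to 0. RPL5 was -0.00366 with RLE size factors, -0.0137 with library totals, -0.00450 with at least 10 counts in every sample, -0.00468 with the replicate block, -0.0346 with the length correction and -0.0137 with controls 1 and 2 summed. RPSA was -0.00372 and -0.00375 on the FPKM scales (pseudocounts 1 and 0.1), -0.00496 with the length correction and -0.0179 with summed controls. On the FPKM scales RPL35 was 0.0819 and 0.0821, RPS14 -0.0178 and -0.0179, and RPS27L -0.0234 and -0.0242. RPS27L was -0.00375 with the length correction, RPL22 was 0.00605 and RPL35 0.00280 with no filter, and RPL36 was -0.0908 with the GC correction. Leaving out a replicate gave -0.0297 to 0.178 for RPL11, -0.0710 to 0.118 for RPL22, -0.146 to 0.134 for RPL35, -0.0672 to 0.296 for RPL36, -0.373 to 0.0705 for RPL41, -0.0510 to 0.0948 for RPL5, -0.238 to 0.0595 for RPS2, -0.0198 to 0.254 for RPS3, -0.113 to 0.184 for RPSA, -0.103 to 0.00957 for RPL7L1 and -0.0512 to 0.127 for RPS27L. The causes were not tested. Of 27 named members, 17 kept their sign in each fit.

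Controls 1 and 2 were closer to each other than other pairs (mean chi-square per gene 2.27, against 18.2 to 44.5 for other pairs of one group), above sampling noise, and were kept apart. With the 2 summed, DEGs among all genes tested fell from 1866 (11.5%) to 292 (1.75%), and no member or gene of the related lists was a DEG. Calls in the lists therefore depend on keeping these controls apart, while the fold changes stayed near those reported (RPS6KB1 -0.72, EIF4EBP1 0.74, SPATA5 -0.70 and NOP58 -0.73).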
